A study of Mus musculus with 8 samples.

Results

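Amino acid transporter genes of the SLC1, SLC3, SLC6, SLC7, SLC36, SLC38 and SLC43 families were examined in severely inflamed and control mouse colon. Members were all genes with a family symbol (Slc1a, Slc3a, Slc6a, Slc7a, Slc36a, Slc38a or Slc43a and a number) and a probe set that names 1 gene. They numbered 64 of 30701 named genes, and 61 of them encode carriers or their heavy chains, while Slc7a6os, Slc36a1os and Slc6a19os are neighbouring transcripts caught by the symbol. The probe set with the highest mean was used where a gene had more than 1.

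The inflamed group was 3 mice given naïve T cells and killed when severely ill with colitis. The control group was 5 mice given regulatory T cells. All 8 mice were C57BL/6 and Rag1-/-, so they make no mature T or B cells of their own and keep their innate immune cells. Injection was at 10 weeks of age, the mice were killed 2 to 4 months later per the labels' protocols, and the labels give an age of 4 to 5 months, which these times do not match in full. The sources also differ on the region, naming either distal colon or a strip along the whole large bowel. Each mouse gave 1 array. The control mice received another T cell type rather than none, so the comparison includes both the colitis and the kind of cell transferred.

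Amino acid carriers move amino acids across the surface and lysosomal membranes of cells. Several SLC7 carriers reach the surface only when bound to a heavy chain, Slc3a2 (CD98, 4F2hc) or Slc3a1 (rBAT), and many work as exchangers, in which uptake of one amino acid is paid for by release of another. In the gut, apical carriers of the SLC6 and SLC7 families take up amino acids from the lumen, and SLC1, SLC7 and SLC38 carriers also feed glutamine, arginine and cystine to dividing cells and leukocytes. When amino acids run short, the transcription factor ATF4 switches on several of these genes together with enzymes of amino acid synthesis.

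Of the 64 members, 6 rose, 5 fell and 53 did not pass the test (limma, Benjamini-Hochberg adjusted p under 0.05 over all 30701 genes). Those 11 are 17.2% of the members, against 13.1% of all named genes called in either direction. Risen members were 9.38% against 8.06% of all genes, and fallen members were 7.81% against 5.04%. These shares over all genes also stand beside the role and list counts below. The cystine carrier gene Slc7a11 was 9.68-fold higher in inflamed colon, measured against a control level near background. The other 10 changed by 1.21-fold to 1.68-fold, so only Slc7a11 passed a 2-fold limit as well, which is 1.56% of the members against 2.37% of all genes in either direction, 1.48% higher and 0.889% lower. Across the members the median difference, inflamed minus control, was -0.048 on the log2 scale, against -0.013 over all named genes. Groups did not overlap for 17 members, 26.6% against 21.2% of all genes. Of these, 8 were higher in inflamed colon, where 12% of all genes were, and 9 were lower, where 9.17% of all genes were.

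**Figure D1:**
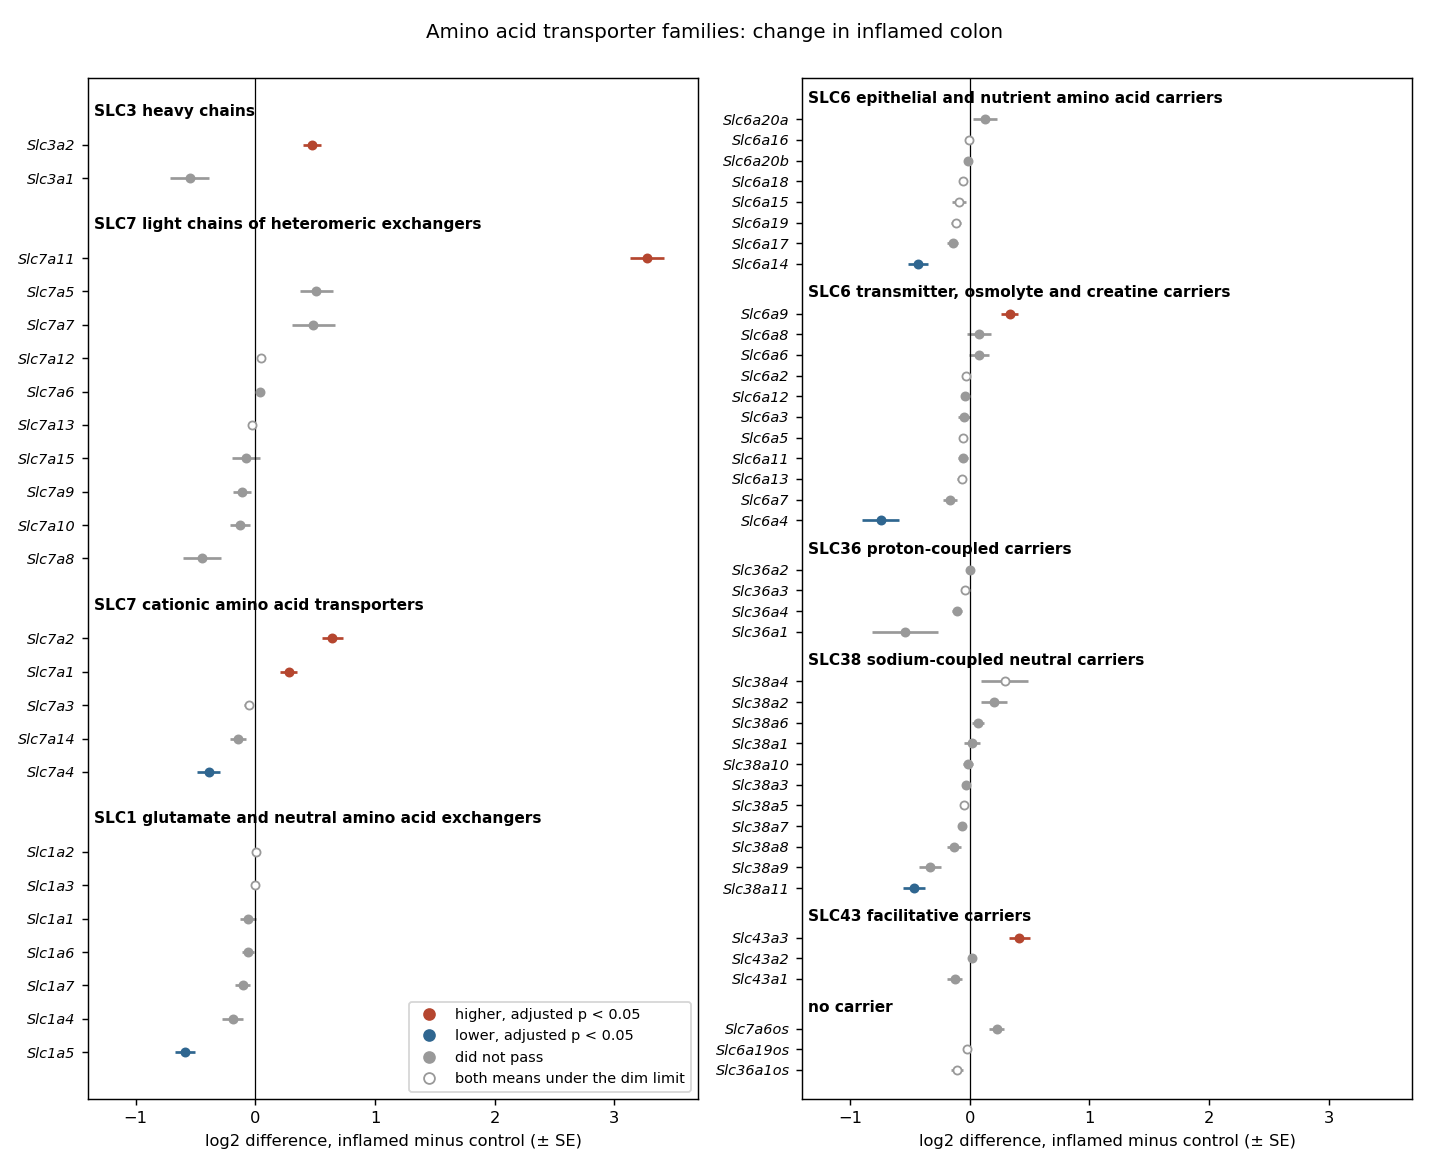
Log2 difference (inflamed minus control, limma standard error as bars, n = 3 and 5 arrays) of all 64 members grouped by role, with hollow points where both group means lay under the array median limit of 4.88. Slc7a11 stands apart at 3.28, while the other called members lie between -0.75 and 0.64.

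The arrays are described briefly because they bear on the calls. Values are log2 RMA intensities, and the average of the array medians over all transcript clusters, 4.88, served as a limit under which a gene was called dim. The medians of the negative control probe sets were 4.92 to 5.11, and the control means of Slc7a11, Slc7a2 and Slc38a11 lay under or within that range, so their changes are measured against a level not clearly above background. In both groups 17 members were dim, and 23 members (35.9%) held the same value on at least 4 arrays, against 24.6% of all genes. None of the 11 called members did. Correlations between arrays were 0.986 to 0.995 among inflamed arrays, 0.994 to 0.997 among controls and 0.980 to 0.986 between the groups. Inflamed replicate 2 stood apart, with an array weight of 0.174 against 0.842 to 1.71 for the other 7. Marker lists also moved with the groups. All 18 measured leukocyte markers rose (median difference 1.58), and their mean level was 7.80 to 8.17 on inflamed arrays against 5.74 to 6.00 on control arrays. Among 16 epithelial markers 1 rose and 7 fell, with list means of 10.78 to 11.08 on inflamed and 11.14 to 11.38 on control arrays, and the median difference was -0.11. RMA values have no zero, so no marker can be said to be absent. The part of these shifts in the members' results was not tested, and in whole tissue fewer cells of a type and less RNA per cell cannot be told apart.

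Promoter sequence is shown for the 3 members whose windows held the C/EBP-ATF response element. The element was chosen because Slc7a11 showed the largest change and it is a binding motif for ATF4 with a C/EBP partner. A window covers 250 bases before the start and 50 from the start on. Sequences are from the RefSeq promoter table for GRCm38.p6, all 3 on the minus strand and read 5′ to 3′ along the gene. Capitals mark TGATGNAA on either strand. Slc7a11 (chromosome 3, gene ID 26570) is given as the 250 bases before its start, chr3:50443614-50443863. The other 2 are 30-base stretches around the motif, at chr11:20332699-20332728 for the neutral amino acid exchanger gene Slc1a4 and chr14:54417927-54417956 for the cationic amino acid exchanger light chain gene Slc7a7. Both stretches, and the motifs in them, run across a listed start of the gene. Slc7a7 has another listed start, and the site shown lies 243 bases before it.
Slc7a11: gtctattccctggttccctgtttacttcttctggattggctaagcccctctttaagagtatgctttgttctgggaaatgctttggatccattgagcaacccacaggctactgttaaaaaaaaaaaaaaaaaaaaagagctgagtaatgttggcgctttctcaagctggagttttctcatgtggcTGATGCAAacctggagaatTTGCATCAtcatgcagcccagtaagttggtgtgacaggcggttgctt
Slc1a4: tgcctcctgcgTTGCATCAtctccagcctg
Slc7a7: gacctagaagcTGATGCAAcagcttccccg

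The Slc7a11 window held the motif at 66 and 47 bases before the start, on opposite strands. At least 1 copy was present in 3.97% of the 32851 promoter windows in the table and in 4 (5.88%) of the members' 68 windows. A gene can have more than 1 window, and the Slc7a7 site shown was counted in overlapping windows. At least 2 copies were present in 23 windows. The uncalled Slc7a7 is also among those 23, with copies that begin 141 bases and 1 base before the start. The stretch shown is around the nearer copy. RefSeq gave a window for 47 of the 64 members, and for 7 of the 11 called members. Among those 7 the motif was in Slc7a11 alone. Another motif, TGACNNNGC, which resembles the antioxidant response element bound by NRF2, was in 12.4% of all windows and in 17.6% of the members' windows. Its called holders were Slc7a1 and Slc6a9, and these letters were not in the Slc7a11 window. A match is a description of letters and not of a bound site. Motif searches were chosen after the data were seen, and they also covered other motifs. The AP-1 site TGACTCA was in 5.20% of all windows and 8.82% of the members' windows. The E-box CACGTG was in 7.15% and 13.2%, with 0 called holders. An HNF4 site was in 0.475% and 1.47%, and an ER stress element in 0.0365% and 0%. Higher shares in the members' windows were therefore not particular to the motifs described first.

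Heavy chains and their light chains come first. Slc7a11 (xCT) exchanges cystine for glutamate, and the imported cystine feeds glutathione synthesis. It measured 8.36, 7.73 and 8.08 on inflamed arrays, against 4.73, 5.01, 4.69, 4.78 and 4.69 on control arrays. Every inflamed array was far above every control array, and the control mean lay in the dim range. The means were 8.06 ± 0.32 in inflamed colon and 4.78 ± 0.13 in control colon (SD, n = 3 and 5), a log2 difference of 3.28 ± 0.142 (SE; adjusted p = 7.29e-05, limma). The call held with each of the 8 arrays left out in turn, with differences of 3.12 to 3.44.

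Slc3a2, the heavy chain shared by Slc7a11 and several other light chains, also rose. It measured 8.90, 8.72 and 8.94 on inflamed arrays, against 8.56, 8.36, 8.40, 8.34 and 8.26 on control arrays. All 3 inflamed arrays lay above all 5 controls. The difference was 0.47 ± 0.0783, or 1.39-fold (limma adjusted p = 0.00906). The other heavy chain, Slc3a1, pairs with Slc7a9 to take up cystine and cationic amino acids at the apical membrane. It measured 8.85, 9.35 and 8.78 on inflamed arrays, against 9.82, 9.39, 9.47, 9.69 and 9.35 on control arrays. Inflamed replicate 2 met the lowest control, while the other 2 inflamed arrays were below all controls, and the difference of -0.55 ± 0.163 did not pass (limma adjusted p = 0.0689). Without inflamed replicate 2 it was -0.73 and passed, at a limma adjusted p of 0.0216.

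Slc7a5 (LAT1) imports large neutral amino acids such as leucine in partnership with Slc3a2, and growing lymphocytes depend on it. It measured 7.60, 7.23 and 7.72 on inflamed arrays, against 7.20, 7.16, 7.04, 6.81 and 6.83 on control arrays. The groups did not overlap, though inflamed replicate 2 lay only just above the highest control. The difference was 0.51 ± 0.137, 1.42-fold, with a limma adjusted p of 0.0517, just outside the threshold. Without inflamed replicate 2 it was 0.65 and passed (limma adjusted p = 0.0211).

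Slc7a7 (y+LAT1), a light chain for export of cationic amino acids that epithelium and macrophages use, measured 8.30, 8.96 and 8.49 on inflamed arrays, against 8.45, 8.20, 8.01, 7.97 and 7.85 on control arrays. Inflamed replicate 2 was the highest and inflamed replicate 1 lay among the controls. The difference was 0.49 ± 0.181 and did not pass (limma adjusted p = 0.129). Slc7a8 (LAT2), a neutral amino acid exchanger of epithelia, measured 6.47, 7.03 and 6.82 on inflamed arrays, against 7.48, 7.33, 6.93, 7.09 and 7.25 on control arrays. Its groups overlapped, and its difference of -0.44 ± 0.158 did not pass either (limma adjusted p = 0.116). In all, 1 of 10 measured light chains rose and none fell. At an unadjusted limma p under 0.05 there were 3 higher and 1 lower, against 4752 higher and 4000 lower of all 30701 genes.

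Change in a light chain was also set against change in its heavy chain within each array, over 9 pairs, by exact two-sided permutation tests over all 56 splits of the arrays. The smallest p such a test allows is 0.0179, which is 0.0321 after Benjamini-Hochberg adjustment here. Slc7a11 rose by 2.80 log2 units more than Slc3a2, at that smallest adjusted p. The difference for Slc3a2 exceeded that for Slc3a1 by 1.02, again at an adjusted exact p of 0.0321. Slc7a6, Slc7a8 and Slc7a10 fell short of Slc3a2 by differences of -0.44, -0.92 and -0.60, each at an adjusted exact p of 0.0321. Slc7a6 and Slc7a10 themselves differed by 0.03 and -0.13 and did not pass (limma adjusted p = 0.483 and 0.362). Their pair differences therefore largely restate the rise of Slc3a2 and add no separate evidence. The other pair differences, those of Slc7a11 and Slc3a1 included, likewise follow from the changes of both genes and are not independent of them. For Slc7a5 and Slc7a7 against Slc3a2 the differences were 0.04 and 0.01, with adjusted exact p of 0.703 and 0.982. For Slc7a9 and the dim Slc7a13, light chains of Slc3a1, the difference exceeded that of Slc3a1 by 0.44 and 0.52, with adjusted exact p of 0.0536 and 0.0689. Slc7a9 and Slc7a13 themselves differed by -0.11 and -0.03 and did not pass (limma adjusted p = 0.36 and 0.538). These pair values therefore largely restate the uncalled difference of Slc3a1. The test was added after the data were seen, and with 7 arrays its smallest p is larger. With 1 array left out, adjusted exact p for the Slc7a11 and Slc3a1 pairs was 0.0429 to 0.0857 and was under 0.05 only without control replicate 5.

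**Figure D2:**
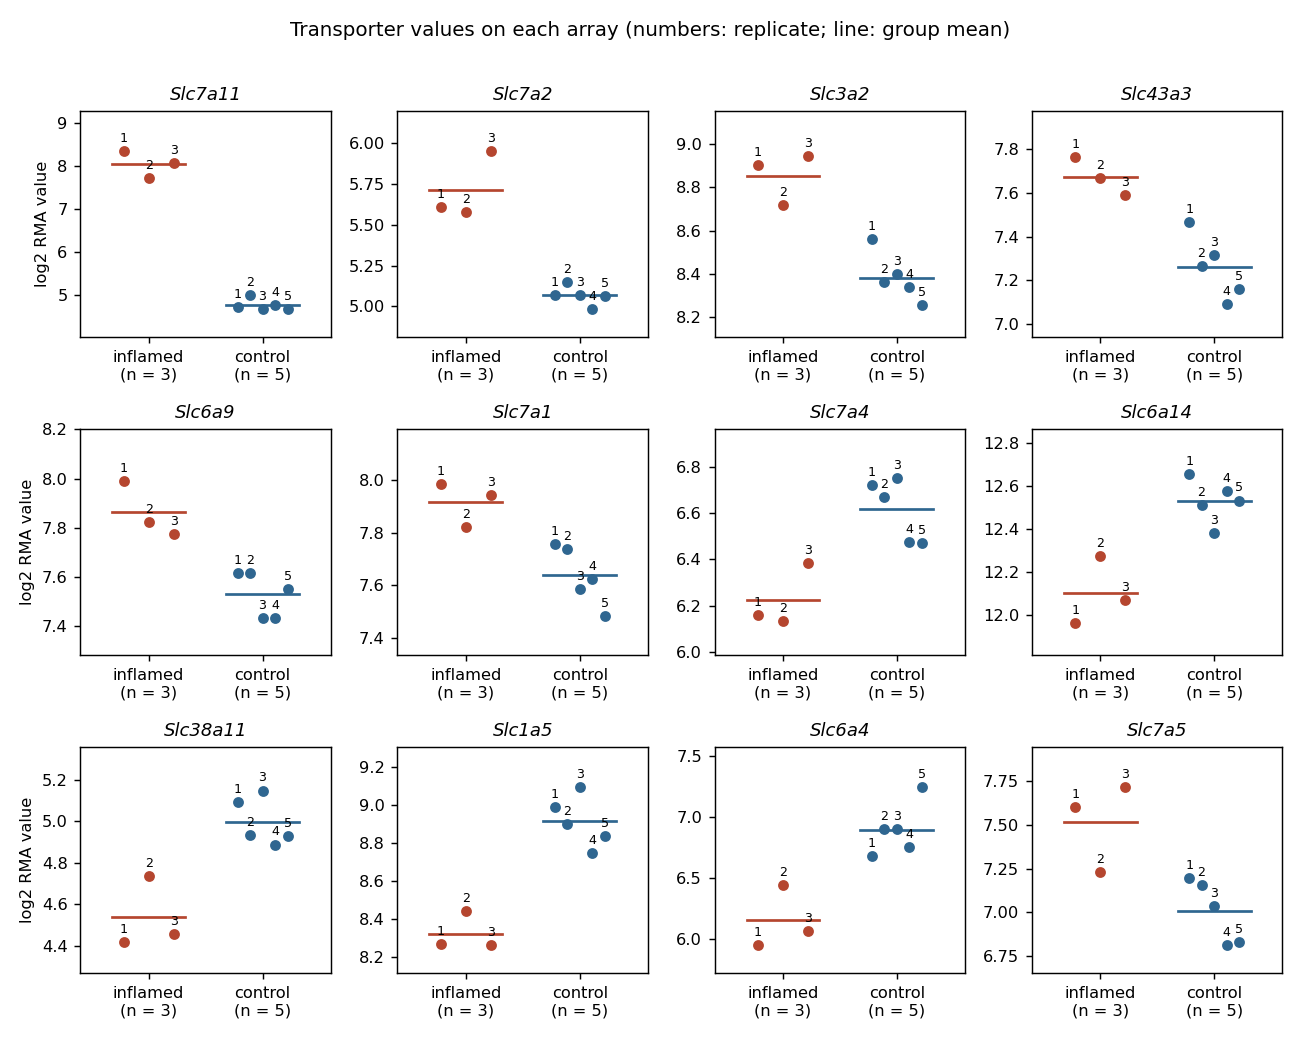
Log2 RMA value on every array (points, inflamed left of control, lines at group means) for the 11 called members and Slc7a5. Each panel has its own axis range. The groups do not overlap in any of the 12 panels, and the gap for Slc7a11 is the widest.

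The cationic amino acid transporters, which carry arginine, lysine and ornithine, held 2 risen and 1 fallen of 5 measured members. Slc7a2 (CAT2) is an inducible carrier that supplies arginine to activated macrophages. It measured 5.61, 5.58 and 5.95 on inflamed arrays, against 5.07, 5.15, 5.07, 4.99 and 5.06 on control arrays. Inflamed replicate 3 was the highest, and all inflamed arrays were above the controls. The control values were at the level of the negative control probe sets. The difference was 0.64 ± 0.0876 (limma adjusted p = 0.00433).

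Slc7a1 (CAT1) is the widely expressed carrier of this family. It measured 7.99, 7.82 and 7.94 on inflamed arrays, against 7.76, 7.74, 7.58, 7.62 and 7.48 on control arrays. The groups were separate by a narrow gap. The difference was 0.28 ± 0.0719, 1.21-fold (limma adjusted p = 0.0446). It lost the call without inflamed replicate 1 (adjusted p = 0.147) or 3 (0.11), and without control replicate 2 (0.0553), 3 (0.0946), 4 (0.0973) or 5 (0.0671). The call was also lost with quantile normalization (adjusted p = 0.0768) and with the pattern of sex-linked transcripts as a block (0.0686). Slc7a4, a related protein whose transport activity is unclear, measured 6.16, 6.13 and 6.38 on inflamed arrays, against 6.72, 6.67, 6.75, 6.47 and 6.47 on control arrays. No inflamed array reached the lowest control. The difference was -0.39 ± 0.0924 (limma adjusted p = 0.0334). Without inflamed replicate 1 the adjusted p was 0.116, without inflamed replicate 2 it was 0.0891, and without control replicates 1, 2 and 3 it was 0.0702, 0.0775 and 0.0669. With the sex pattern as a block it was 0.0639.

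Among glutamate and neutral amino acid exchangers of SLC1, 1 of 7 measured members fell and none rose. At an unadjusted limma p under 0.05 the counts were the same, 1 lower and 0 higher, against 4000 lower and 4752 higher of all 30701 genes. Slc1a5 (ASCT2), the main glutamine exchanger of many dividing cells, measured 8.27, 8.44 and 8.26 on inflamed arrays, against 8.99, 8.90, 9.09, 8.75 and 8.84 on control arrays. The inflamed arrays were all below the lowest control. Means were 8.32 ± 0.10 in inflamed colon and 8.91 ± 0.13 in control colon (SD, n = 3 and 5), with a difference of -0.59 ± 0.0844, 1.51-fold lower (limma adjusted p = 0.0051). The difference passed with each array left out in turn. Slc1a4 (ASCT1), whose window held the element shown above, was at 7.06 in inflamed colon and 7.25 in control colon, a difference of -0.19 ± 0.0854 that did not pass (limma adjusted p = 0.195).

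Carriers of the SLC6 family for epithelial and nutrient uptake held 1 fallen of 8 measured members, 4 of the 8 being dim in both groups. Slc6a14 (ATB0,+) takes up neutral and cationic amino acids at the apical membrane of colon epithelium. It measured 11.96, 12.27 and 12.07 on inflamed arrays, against 12.65, 12.51, 12.38, 12.57 and 12.53 on control arrays. The groups did not overlap, and inflamed replicate 2 lay nearest to the lower controls. The difference was -0.43 ± 0.0835, 1.35-fold lower (limma adjusted p = 0.0167). The call was lost without inflamed replicate 1 (adjusted p = 0.0577) or inflamed replicate 3 (0.0511) and when the arrays were quantile normalized (0.165).

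Slc6a14 lies on chromosome X, and mice of both sex patterns were present in each group by their sex-linked transcripts. The patterns were not balanced, with high Xist on inflamed replicate 3 and on control replicates 3, 4 and 5. The call was kept with that pattern as a block. Slc6a19 (B0AT1), the main neutral amino acid carrier of the small intestine, measured 4.41, 4.46 and 4.53 on inflamed arrays, against 4.54, 4.64, 4.64, 4.54 and 4.54 on control arrays. All 8 values were in the dim range, and inflamed arrays were slightly below the controls. The difference of -0.11 ± 0.0411 did not pass (limma adjusted p = 0.122). Its trafficking partner Cltrn was dim as well, at 3.49 in inflamed colon and 3.57 in control colon.

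SLC6 carriers of monoamines, GABA, glycine, proline, taurine, betaine and creatine held 1 risen and 1 fallen of 11 measured members. Slc6a4 (SERT) is the serotonin reuptake carrier of neurons and gut epithelium. It measured 5.95, 6.44 and 6.06 on inflamed arrays, against 6.68, 6.90, 6.90, 6.75 and 7.25 on control arrays. The 3 inflamed arrays were lower than any control, with inflamed replicate 2 the nearest. The difference was -0.75 ± 0.155, 1.68-fold lower and the largest fall among the members (limma adjusted p = 0.0211). The call was lost without inflamed replicate 1 (adjusted p = 0.0792), inflamed replicate 3 (0.0637) or control replicate 2 (0.0521).

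Part of the list of enteric neuron and glia markers was lower as well. Of 16 measured markers 4 fell, 0 rose and 12 did not pass (limma), where 5.04% of all genes fell and 8.06% rose. At an unadjusted limma p under 0.05, 1 was higher and 8 were lower, against 4752 higher and 4000 lower of 30701 genes. The marker higher was Ret, by 0.53 (limma adjusted p = 0.174), and the median difference was -0.18. Fewer than 4 markers fell with any 1 array left out, and with the sex pattern as a block. The mean level over all 16 markers was 5.68 to 5.75 on inflamed arrays, against 5.83 to 6.06 on control arrays. The part of this shift in the Slc6a4 difference was not tested.

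Slc6a9 (GlyT1), which takes up glycine, measured 7.99, 7.82 and 7.78 on inflamed arrays, against 7.62, 7.62, 7.44, 7.43 and 7.55 on control arrays. The lowest inflamed array was above the highest control. The difference was 0.33 ± 0.0686, 1.26-fold (limma adjusted p = 0.0208), and without inflamed replicate 1 the adjusted p was 0.0638. A second probe set for the gene was at 3.18 in inflamed colon and 3.16 in control colon, a difference of 0.02, and the mean over both differed by 0.18. The taurine carrier Slc6a6 and the creatine carrier Slc6a8 each differed by 0.08 and did not pass (limma adjusted p = 0.577 and 0.639).

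The sodium-coupled neutral amino acid carriers of SLC38 held 1 fallen of 11 measured members. Slc38a11, a little studied member, measured 4.42, 4.74 and 4.46 on inflamed arrays, against 5.09, 4.94, 5.15, 4.89 and 4.93 on control arrays. All inflamed arrays were lower, and the inflamed mean was in the dim range. The difference was -0.46 ± 0.0929 (limma adjusted p = 0.0187). With low values raised to a floor it was -0.12 and did not pass (0.229), and the call was also lost without inflamed replicate 1 (0.0709) or 3 (0.0592).

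Slc38a2 (SNAT2), a carrier induced by amino acid shortage in many cells, measured 10.29, 10.31 and 10.45 on inflamed arrays, against 10.36, 10.14, 9.92, 10.29 and 10.02 on control arrays. The groups overlapped, and the difference of 0.20 ± 0.106 did not pass (limma adjusted p = 0.256). Slc38a9, a lysosomal arginine sensor for mTORC1, measured 6.25, 6.61 and 6.30 on inflamed arrays, against 6.83, 6.60, 6.67, 6.67 and 6.81 on control arrays. Inflamed replicate 2 lay at the lower edge of the controls. The difference of -0.33 ± 0.094 did not pass (limma adjusted p = 0.0601), though it did without inflamed replicate 2 (0.0115). Slc38a4 measured 4.37, 4.34 and 5.24 on inflamed arrays, against 4.37, 4.32, 4.37, 4.36 and 4.37 on control arrays. Only inflamed replicate 3 was raised, and the difference of 0.29 ± 0.197 did not pass (limma adjusted p = 0.367).

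The SLC36 proton-coupled carriers, which release amino acids from lysosomes or take them up from the gut lumen, held 0 called of 4 measured members. At an unadjusted limma p under 0.05, 1 was lower, against 4000 of all 30701 genes. Slc36a1 measured 7.56, 7.72 and 7.13 on inflamed arrays, against 7.72, 7.76, 8.24, 7.63 and 8.72 on control arrays. Controls spread widely and the groups overlapped, so the difference of -0.54 ± 0.276 did not pass (limma adjusted p = 0.244). Among SLC43 facilitative carriers 1 of 3 rose. Slc43a3, which carries purine nucleobases rather than amino acids, measured 7.76, 7.67 and 7.59 on inflamed arrays, against 7.46, 7.26, 7.32, 7.09 and 7.16 on control arrays. All inflamed arrays were above all controls. The difference was 0.41 ± 0.0873 (limma adjusted p = 0.0222). It did not pass without inflamed replicate 1 (0.0835) or 2 (0.0518), or without control replicate 2 (0.0534) or 5 (0.0543).

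**Figure D3:**
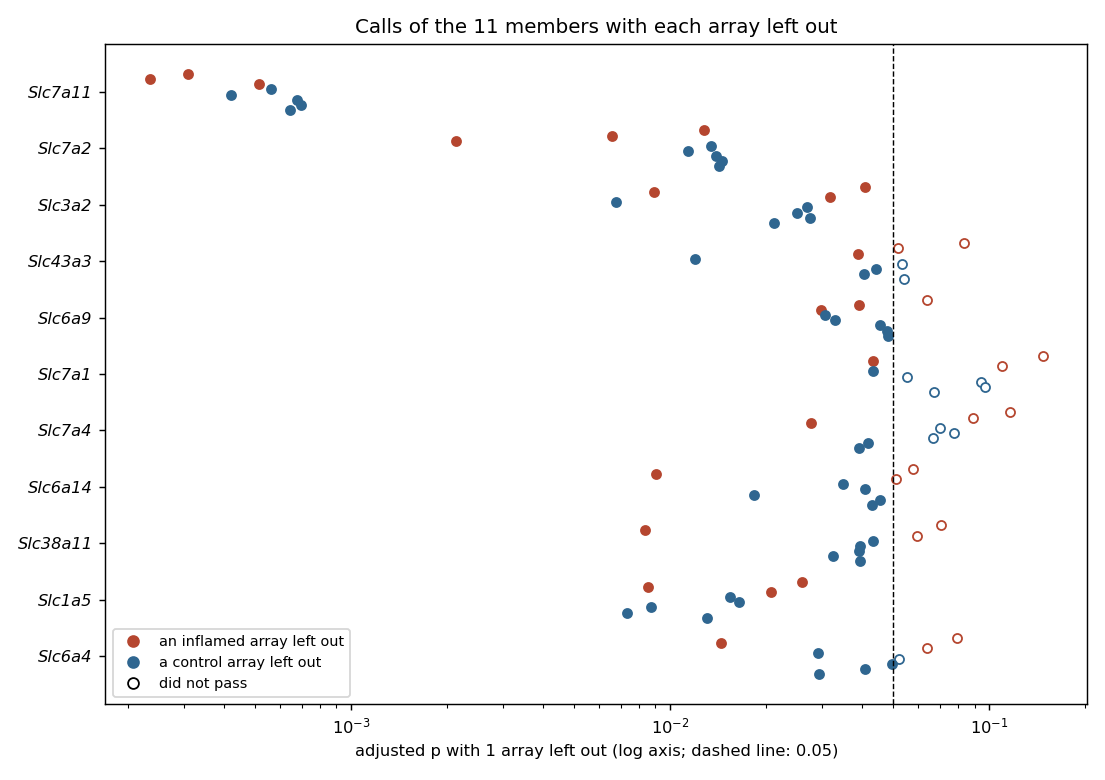
Limma adjusted p (log axis) of the 11 called members with each of the 8 arrays left out in turn, with the threshold of 0.05 marked. Slc7a11, Slc3a2, Slc7a2 and Slc1a5 stay under the line throughout, and the other 7 cross it for at least 1 array.

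The 53 members that did not pass differed by -0.55 to 0.51, and 31 of the 64 members differed by less than 0.1 in either direction. Within the SLC1 family the uncalled members differed by -0.19 to 0.0022, and within SLC38 by -0.33 to 0.29. The neighbouring transcript Slc7a6os differed by 0.23 ± 0.0628 (limma adjusted p = 0.0573). Leaving out an array moved the count of risen members between 3 and 6 and of fallen members between 1 and 6. It was lowest without inflamed replicate 1, with 3 risen and 1 fallen, and 7 members were called without inflamed replicate 3 and 7 without control replicate 2.

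Genes of the amino acid stress response driven by ATF4 were set beside the carriers. Of 28 measured genes 14 rose and 5 fell, where 8.06% of all genes rose and 5.04% fell. The median difference was 0.25 against -0.013 over all genes. Wars, which charges tRNA with tryptophan and is also interferon induced, measured 9.84, 9.57 and 9.97 on inflamed arrays, against 8.55, 8.31, 8.26, 8.24 and 7.89 on control arrays. Its groups were well apart, at a difference of 1.54 ± 0.15 (limma adjusted p = 0.00121). Asns, which makes asparagine, measured 8.49, 8.79 and 8.87 on inflamed arrays, against 7.84, 7.76, 7.47, 7.58 and 7.29 on control arrays.

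All inflamed arrays were above the controls for Asns as well, at a difference of 1.13 ± 0.14 (limma adjusted p = 0.00314). Cth, the enzyme that makes cysteine from cystathionine, measured 8.17, 8.90 and 7.84 on inflamed arrays, against 9.70, 9.60, 9.62, 9.72 and 9.50 on control arrays. It was lower on all inflamed arrays, at -1.33 ± 0.21 (limma adjusted p = 0.0077). The serine synthesis genes Phgdh and Psat1 rose by 0.66 and 0.69. Cbs, which makes cystathionine, fell by 0.65. Atf4 itself differed by 0.21 and its target Trib3 by -0.02, and neither passed (limma adjusted p = 0.106 and 0.851). Ddit3, another target, fell by 0.28 (limma adjusted p = 0.0425).

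**Figure D4:**
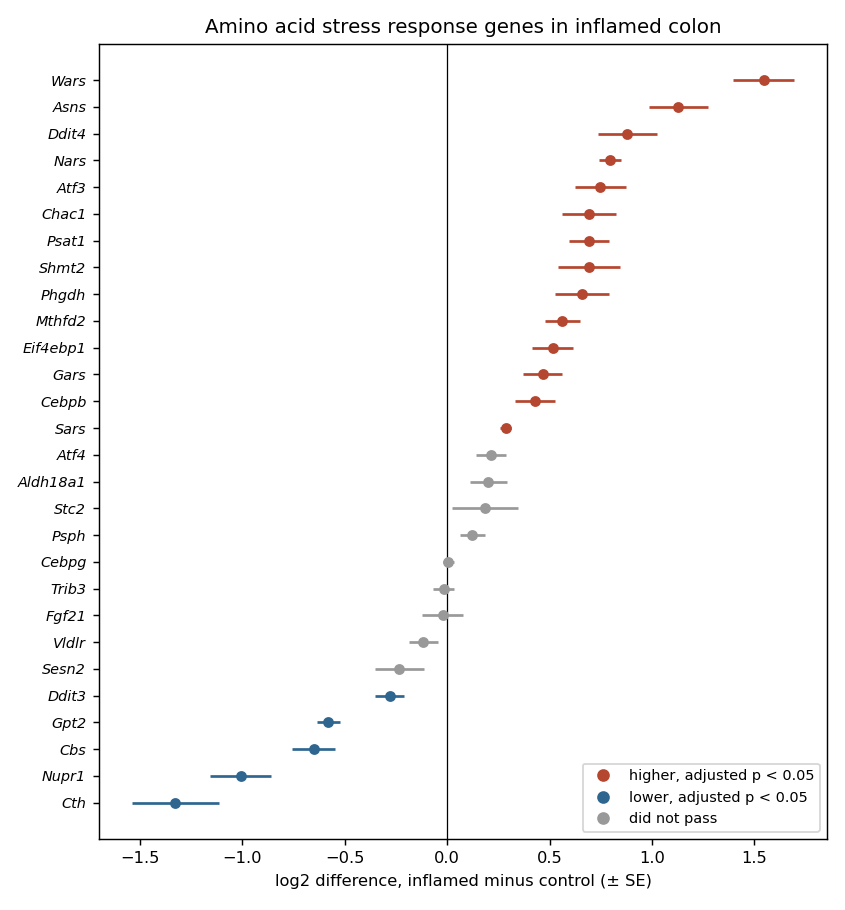
Log2 difference, inflamed minus control, with limma standard error bars (n = 3 and 5 arrays), for the 28 measured genes of the ATF4 stress response list. Wars and Asns lie at the high end and Cth at the low end, with genes on both sides of 0.

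Among 28 measured genes of amino acid metabolism, which cover glutamate, proline, serine, glycine, branched-chain, tryptophan and tyrosine enzymes, the urea cycle and glutathione synthesis, 3 rose and 5 fell (median difference -0.03). Ido1, which breaks down tryptophan and is interferon induced, rose by 4.33 ± 0.50 (limma adjusted p = 0.00224). Otc, a urea cycle enzyme, fell by 2.86 (limma adjusted p = 0.00934), and Tat, which breaks down tyrosine, rose by 1.48 (0.0172). The glutathione synthesis genes Gclc and Gss differed by 0.10 and 0.22 and did not pass (limma adjusted p = 0.612 and 0.25).

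Genes of amino acid sensing and mTORC1 held 3 risen and 2 fallen of 32 (median difference -0.04). The Rag GTPase gene Rraga rose by 0.40 (limma adjusted p = 0.0384), Sesn3 by 0.31 (0.0491), and Eif2ak4, the kinase that senses uncharged tRNA, fell by 0.27 (0.0272). As the mean over its probe sets Sesn3 differed by -0.10, in the opposite direction, and did not pass (limma adjusted p = 0.663). Other amino acid and peptide carriers and their trafficking partners held 1 risen and 4 fallen of 26 (median difference -0.07). The lysosomal peptide and histidine carrier Slc15a3 rose by 0.61 (limma adjusted p = 0.0205), its relative Slc15a4 fell by 0.34 (0.0439), and the mitochondrial branched-chain amino acid carrier Slc25a44 fell by 0.43 (0.022).

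Among further marker lists, 17 smooth muscle and fibroblast genes held 3 risen and 5 fallen (median difference -0.24). Of 11 endothelial genes 0 were called by limma. At an unadjusted limma p under 0.05, 2 were higher and 1 lower, against 4752 and 4000 of all 30701 genes. Epithelial markers were not uniform, with 1 risen, 7 fallen and 8 that did not pass. The water channel gene Aqp8 fell by 2.15 ± 0.41 (limma adjusted p = 0.0151) and the chloride exchanger gene Slc26a3 fell by 1.30. The keratin gene Krt20 rose by 0.58 (0.0199). Epcam differed by -0.01 (0.938) and Krt8 by 0.10 (0.204), and neither passed.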

How the data were processed

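The authors deposited log2 intensities per probe set, made with Affymetrix Expression Console and RMA per the submitters' processing notes (versions and array model not given in the sources used here). RMA compresses low signals, so folds of dim genes are understated. The table held 65956 transcript clusters, and 6732 control probe sets were left out. Symbols came from the array annotation, with 1138 updated through the RefSeq table of GRCm38.p6. A probe set shared by Slc1a2 and Gm13872 was left out. Slc6a21 and Slc36a3os are listed under older symbols and are not members.

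Groups were compared with limma 3.58.1 in R 4.3.3 (lmFit, eBayes, no covariate), inflamed minus control, n = 3 and 5, adjusted by Benjamini-Hochberg over all 30701 genes. SE is limma's and SD is between arrays. The number of arrays limits precision. The limma p-values set each difference against the spread between these mice, with each gene's variance moderated by those of all genes. On simulated data with 30701 genes, 84% of genes changed by 1 log2 unit and 97% by 2 were recovered, with 15 false calls. Noise was normal and independent, and changes were put only in genes with a mean above the dim limit. Called members other than Slc7a11 differed by -0.75 to 0.64, less than either size, and 17 members were dim in both groups. The recovery rates therefore do not describe these members.

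Members, lists and roles were chosen with earlier results of these data known. Named genes were the called members, a set of members given whatever their call, and per list up to 3 called genes with the largest changes. Other list genes, and other uncalled members, were named after their values were seen. Alternatives were other scalings, a floor, leaving out dim genes, the mean over probe sets, an intensity trend, array weights, replicate and sex-pattern blocks and leaving out each array. The labels state no pairing of mice by replicate number, and a check that cannot exclude one is given below.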

Additional observations from a re-analysis of the deposited data

Results flagged for a closer look

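Slc7a11 in control replicate 2 measured 5.013, above the other controls at 4.69 to 4.78. Its gap to the nearest of them was 0.726 of the control range, against Dixon's limit of 0.71 for 5 samples. This was 1 of 15 member groups tested, and chance flags about 1 group in 20.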

How the results depend on the processing

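Of the 11 called members, Slc7a11, Slc3a2, Slc7a2 and Slc1a5 passed in all 17 settings other than the replicate block, and 6 uncalled members passed in at least 1. Members called fallen were 8 with array weights. With the replicate number as a replicate block, every count of calls printed in the report was 0, over members, lists and all genes. At an unadjusted p under 0.05 that fit (limma) gave 4918 genes and 14 members, with a smallest adjusted p of 0.0693. Same-numbered mice correlated at -0.285, -0.0526 and 0.069 in their deviations from group means. Inflamed replicates 1, 2 and 3 correlated best with control replicates 3, 1 and 4. The labels state no pairing by number, and these correlations showed none, but with so few mice they cannot exclude one.

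Leaving out 1 array gave 3 to 6 risen and 1 to 6 fallen members, 1 to 1 at 2-fold and 2510 to 4575 genes in all. List ranges of risen and fallen genes were 11 to 13 and 4 to 5 for the stress response, 1 to 3 and 0 to 3 for sensing, 0 to 2 and 0 to 4 for other carriers, and 2 to 3 and 3 to 5 for metabolism. They were 0 to 1 and 3 to 7 for epithelium, 2 to 3 and 4 to 5 for smooth muscle, and 0 to 2 and 0 to 1 for endothelium. Leukocyte genes risen were 17 to 18 and neuron genes fallen 0 to 3.

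Equalised array medians gave 1 risen and 0 fallen sensing genes, 1 fallen other carrier and 5 risen smooth muscle genes. Quantile normalization gave 6 fallen sensing genes and 0 risen epithelial genes. An intensity trend gave 1 fallen sensing gene. The sex-pattern block gave 1 risen and 1 fallen sensing gene, 2 fallen other carriers and 1 fallen neuron gene. Array weights gave 2 risen other carriers, and a floor or leaving out dim genes gave 1 risen endothelial gene. Sesn3 turned to -0.10 as the mean over its probe sets (limma adjusted p = 0.663). Slc7a7 minus Slc3a2 fell to -0.24 without inflamed replicate 2 and was -0.0118, -0.00765 and -0.0166 without control replicates 3, 4 and 5. Slc7a5 minus Slc3a2 was -0.0183 without inflamed replicate 3, and with 1 array left out these pairs ranged from -0.24 to 0.18 and from -0.0183 to 0.11. The causes were not tested.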
